A study of Mus musculus with 9 samples.

Results

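The genes examined here mark the blood vessels, the lymphatics and the contractile cells that wrap small vessels, together with the growth factors and receptors that act on them. They were taken as 42 gene symbols among the 48733 rows of a table of read counts from the mouse submandibular gland (SMG), a salivary gland under the jaw. Each symbol matched 1 row. They comprise 25 blood endothelial genes (10 for junctions and the cell surface, 4 for secreted, matrix and enzyme proteins, 4 transcription factors and 7 receptors), 5 lymphatic genes, 6 ligands and 6 mural genes. The rule used symbols and no measured value.

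The libraries came from SMGs of adult male mice, 4 wild type (WT) and 5 DKO, with 1 library per mouse. DKO mice lacked *Hs3st3a1* and *Hs3st3b1*, which encode enzymes that add 3-O-sulfate groups to heparan sulfate, in every cell of the body, so endothelial and mural cells carried the deletion too. The *Hs3st3b1* allele was a knockout with a LacZ cassette, and a nuclease had made a frameshift deletion in exon 1 of *Hs3st3a1* on the same chromosome. The line descended from more than 1 founder on a C57BL/6 background, and WT littermates without either allele were the controls. The founder and the age of each mouse are not given in the sources used here. WT libraries held 3 to 14 reads of *Hs3st3a1*, and none of the DKO libraries held any (0 counts, which allows up to 3). Reads of *Hs3st3b1* numbered 67 to 216 per WT library against 7 to 45 per DKO library. Total counts were 20653492 to 37870519 in WT and 17053747 to 34683690 in DKO, and the 20 most abundant genes took 56.5% ± 2.65 of all counts per WT library (mean ± SD, n = 4), and 66.0% ± 4.35 per DKO library (mean ± SD, n = 5).

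Endothelial cells line every vessel and hold together through adhesion proteins such as PECAM1 and VE-cadherin. They respond to vascular endothelial growth factors (VEGFs) through the receptors KDR and FLT1 and to angiopoietins through TEK, and the neuropilins serve as VEGF co-receptors. VEGF-A and neuropilins bind heparan sulfate. In many organs VEGF-A is made by the epithelium that the vessels serve, while pericytes and smooth muscle cells, the mural cells, surround the endothelial tube.

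Endothelial genes were read in every library, at low levels. *Pecam1* had 138 to 414 counts per library and *Cdh5*, which encodes VE-cadherin, had 16 to 60. The endothelial transcription factor genes *Erg* (1 to 8 counts) and *Sox17* (0 to 6), the lymphatic master regulator gene *Prox1* (0 to 4) and the peptide ligand gene *Apln* (1 to 11) were too low to test. The other 38 members passed the filter on low counts, among 13842 genes tested. Their levels are given below as TMM-scaled CPM, which are counts divided by library size after an adjustment for the most abundant genes, and changes as the log2 fold change of DKO over WT. A lower value in a whole gland can come from fewer cells of a type or from less RNA in each cell, which cannot be told apart in these libraries. The labels tie no mice to litters, batches or days, so p-values measure the spread between these 9 samples. The sample titles carry a number for each gland. Its meaning is not given, and it did not enter the fits.

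Most of the 38 members lay within 2-fold of WT. The quasi-likelihood F test of edgeR at a Benjamini-Hochberg adjusted p of 0.05, taken over all genes tested, called 0 of the 38, against 0.629% of all genes (87 of 13842). At an unadjusted p under 0.05 it gave 6 members (15.8%), *Esam* and *Kdr* higher in DKO and *Vwf*, *Vegfa*, *Cspg4* and *Mcam* lower, against 14.5% of all genes (6.89% higher and 7.60% lower). DESeq2 called 2 members (5.26%), *Vegfa* and *Mcam*, both lower in DKO, against 4.45% of all genes and 2.68% in that direction. limma-voom with quality weights called 0, against 1.07%. These shares were near those of all genes. In the fitted values 36 of 38 members differed by less than 2-fold, 23 were higher in DKO and 15 lower (60.5% higher, against 52.5% of all genes), and the median log2 fold change was 0.07, against 0.01 over all genes.

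Medians by role are given as a description, and differences between roles were not tested. For the 10 junction and surface genes the median log2 fold change was 0.27, with 9 of 10 higher in DKO, and the 23 blood endothelial genes tested had a median of 0.16, with 16 higher. Over all genes tested 52.5% were higher. The 7 receptor genes had a median of -0.01 and the 4 secreted, matrix and enzyme genes one of 0.09. The 5 ligand genes tested had a median of -0.29 and the 4 lymphatic genes one of -0.33. The 6 mural genes had a median of 0.13, while the mean of their log2 values relative to WT was -0.13 in DKO with *Mcam* and *Cspg4* far below the other 4. Scaling by total library size alone moved the median of all genes tested to -0.28. Under that scaling the blood endothelial median was -0.14 and the junction and surface median -0.02, which are 0.14 and 0.26 above the median of all genes.

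**Figure D1:**
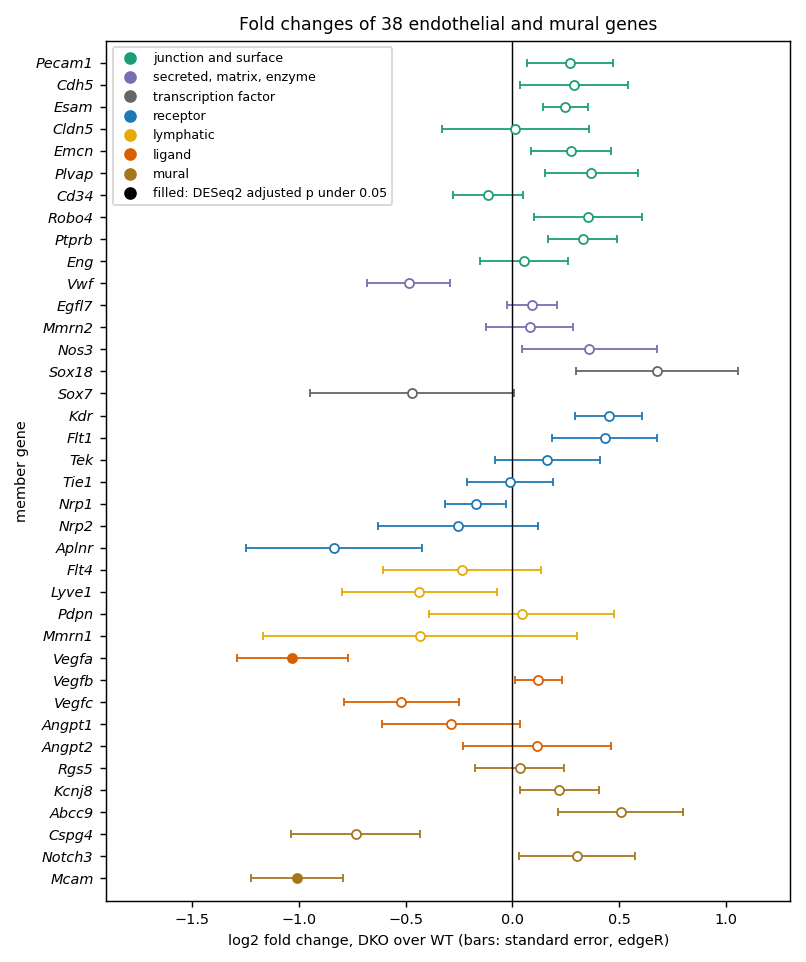
Log2 fold change of DKO (n = 5) over WT (n = 4) for the 38 members tested, coloured by role, with bars for the standard error from edgeR. Filled points mark *Vegfa* and *Mcam*, the 2 members with a DESeq2 adjusted p under 0.05, near -1 on the axis, while 9 of 10 junction and surface genes sit to the right of 0. Of all genes tested 52.5% were higher in DKO.

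The libraries of 1 genotype differed among themselves in these genes. DKO replicate 3 was the highest of the 9 libraries for 13 of the 38 members, and WT replicate 1 was the lowest for 13. Within the blood endothelial genes, WT replicate 1 was lowest for 10 of 23, and DKO replicates 3 and 2 were highest for 8 and 7. In the 10 junction and surface genes, the mean log2 value relative to the WT mean ran from -0.23 to 0.12 in the WT libraries and from 0.01 to 0.28 in the DKO libraries, and the groups overlapped.

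**Figure D2:**
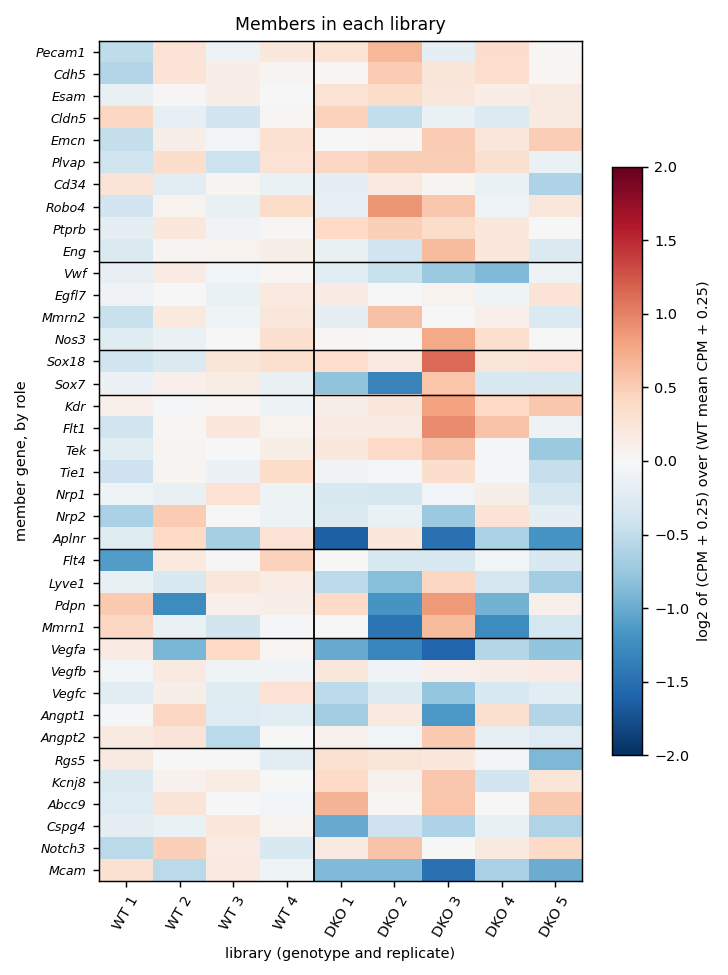
Each row is 1 of the 38 members tested, grouped by role, and each column 1 library. The colour gives the log2 of CPM plus 0.25 over the WT mean plus 0.25. *Vegfa* and *Mcam* are blue in all 5 DKO libraries. *Kdr* and *Esam* are above 0 in all 5, but some of these cells are close to white, as for *Kdr* in DKO replicate 1 (0.11). WT replicate 1 is pale blue through most junction and surface genes.

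*Vegfa*, the gene for the principal angiogenic ligand, had the largest difference among the ligands. It lies at chr17:46016993-46032369 on the minus strand (GRCm38). Its level was 22.3, 10.4, 26.2 and 20.3 CPM in WT replicates 1 to 4 and 9.66, 7.89, 6.45, 13.3 and 11.3 CPM in DKO replicates 1 to 5. The DKO libraries were low, and 3 of 5 lay below every WT library. WT replicate 2 sat among the DKO values, so the groups overlapped. The log2 fold change was -1.03 (SE 0.26, 95% interval -1.60 to -0.46), with an edgeR Benjamini-Hochberg adjusted p of 0.0813 and a DESeq2 Benjamini-Hochberg adjusted p of 0.00673. Without WT replicate 2 edgeR called *Vegfa*, as it did without DKO replicate 4, and without WT replicate 1 or 3 the DESeq2 call was lost. The other alternatives are given in the closing section.

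The bases just upstream of the RefSeq start sites (GRCm38.p6) are shown for *Vegfa* and for *Kdr*, the ligand and receptor genes whose ratio is tested further on. The *Vegfa* stretch is chr17:46032378-46032627 (minus strand, 250 bases) and the *Kdr* stretch is chr5:75978459-75978705 (minus strand, 247 bases). Capitals mark GGAAG, or CTTCC on the other strand. It is a form of the core recognized by ETS family transcription factors, which include the endothelial factor ERG. Other forms of that core were not searched.
Vegfa: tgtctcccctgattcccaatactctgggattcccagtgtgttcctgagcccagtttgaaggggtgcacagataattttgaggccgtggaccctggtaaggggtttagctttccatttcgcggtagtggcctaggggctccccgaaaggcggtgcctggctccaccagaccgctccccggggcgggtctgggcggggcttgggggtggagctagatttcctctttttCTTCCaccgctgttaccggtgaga
Kdr: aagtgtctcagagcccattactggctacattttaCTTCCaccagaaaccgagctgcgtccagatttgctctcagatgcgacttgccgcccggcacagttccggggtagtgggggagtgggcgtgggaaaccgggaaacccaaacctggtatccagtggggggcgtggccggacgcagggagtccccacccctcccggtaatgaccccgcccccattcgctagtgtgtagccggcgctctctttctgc
In windows of 250 bases, searched on both strands, *Vegfa* and *Kdr* each held 1 GGAAG core, which 64.1% of all 32851 windows searched hold. The windows searched did not cover every chromosome. The GC box GGGCGG occurred 2 times in each, against 32.7% of all windows with at least 1. The hypoxia response core, ACGTG or GCGTG, occurred 0 times for *Vegfa* and 2 times for *Kdr*, and is in 38.6% of all windows. The TATA box TATAAA occurred 0 times in both and is in 12.4% of all windows. No base of either window lay in more than 1 of these motifs, with 0 shared bases in each. A window was found for 27 of the 42 members. Of their 33 windows 19 held a GGAAG core (57.6%) and 19 a GC box (57.6%). The letters describe these windows, and binding was not measured.

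The other ligands moved less. *Vegfb*, whose product binds FLT1, was level at 10.8 to 12.8 CPM in WT and 10.8 to 13.3 CPM in DKO. *Vegfc*, the lymphatic growth factor gene, was at 0.839 to 1.33 CPM in WT and 0.504 to 0.870 CPM in DKO, a log2 fold change of -0.52 (95% interval -1.11 to 0.07). *Angpt1*, the agonist of TEK that mural cells make, was at 2.43 to 4.01 CPM in WT and 1.19 to 3.75 CPM in DKO, and 14.2% of its exon bases lie opposite the antisense gene *Gm17473*, whose reads cannot be told apart from its own. *Angpt2*, the context-dependent antagonist that endothelial cells store, was at 0.669, 0.726, 0.309 and 0.557 CPM in WT replicates 1 to 4 and at 0.615, 0.534, 0.916, 0.474 and 0.435 CPM in DKO replicates 1 to 5. Its groups overlapped, and its log2 fold change of 0.11 had a 95% interval of -0.65 to 0.87. For *Apln* the WT counts were 11, 6, 5 and 3, and the DKO counts were 4, 1, 2, 5 and 3.

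*Kdr*, which encodes the main signalling receptor for VEGF-A on endothelium, was higher in DKO without overlap in TMM-scaled CPM. Its gene lies at chr5:75932827-75978458. It was at 5.84, 5.31, 5.58 and 5.06 CPM in WT replicates 1 to 4 and at 5.91, 6.45, 9.66, 7.27 and 8.04 CPM in DKO replicates 1 to 5. The WT values were close together, and the lowest DKO library, replicate 1, lay just above the highest WT library. The log2 fold change was 0.45 (SE 0.15, 95% interval 0.11 to 0.79), and it did not pass (edgeR, Benjamini-Hochberg adjusted p = 0.203, and DESeq2, 0.143). Over the alternative settings it ran from 0.14 to 0.53, and no alternative called *Kdr*.

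*Flt1*, the gene for the other VEGF-A receptor and decoy, was at 1.74, 2.44, 2.78 and 2.49 CPM in WT and 2.69, 2.67, 4.81, 3.63 and 2.17 CPM in DKO. DKO replicate 3 was again highest, and the groups overlapped through DKO replicates 1, 2 and 5. The angiopoietin receptor gene *Tek* was at 2.41, 2.94, 2.85 and 3.09 CPM in WT and 3.31, 3.74, 4.30, 2.72 and 1.59 CPM in DKO. For *Tek* the DKO libraries spread on both sides of WT, with replicate 5 lowest of all 9. The log2 fold changes were 0.43 for *Flt1* (95% interval -0.10 to 0.97) and 0.16 for *Tek* (95% interval -0.37 to 0.70), neither past the edgeR threshold (Benjamini-Hochberg adjusted p = 0.469 and 0.830).

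The remaining receptors were level or lower. *Tie1*, the partner receptor of TEK, was at 3.43 to 6.13 CPM in WT and 3.33 to 6.04 CPM in DKO. The VEGF co-receptor genes *Nrp1* (12.6 to 17.2 CPM in WT, 11.0 to 15.2 in DKO) and *Nrp2* (0.357 to 1.11 CPM in WT, 0.320 to 0.908 in DKO) had log2 fold changes of -0.17 and -0.26. *Aplnr*, the apelin receptor gene, had the lowest fold change of the receptors, at -0.83 (95% interval -1.73 to 0.07). It was at 2.07 to 4.58 CPM in WT and 0.937 to 4.03 CPM in DKO, where replicate 2 stood above the other 4 libraries. With all libraries *Aplnr* did not pass (edgeR, Benjamini-Hochberg adjusted p = 0.390, and DESeq2, 0.306). Of the 23 alternative settings 0 called it. DESeq2 with DKO replicate 2 left out, which is not among those 23, did call it.

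Because both genes are read in the same library, a ratio of 2 members does not depend on the scaling between libraries. The ratio of *Vegfa* to *Kdr* CPM was 3.81, 1.96, 4.68 and 4.02 in WT replicates 1 to 4 and 1.63, 1.22, 0.668, 1.83 and 1.41 in DKO replicates 1 to 5. The highest DKO ratio, in replicate 4, lay below the lowest WT ratio, in replicate 2. The difference was -1.43 on the log2 scale, with a two-sided exact permutation p of 0.00794, the smallest that the splits of 4 against 5 allow, and 0.0476 after Benjamini-Hochberg adjustment over 6 ratios. The members were chosen with earlier results of these data known. These p-values therefore describe the ratio and are not an independent test. Leaving out each library in turn gave differences of -1.70 to -1.19. The other 5 ratios overlapped between the groups. Exact permutation p-values were 0.421 for *Angpt2* to *Angpt1*, 0.762 for *Flt1* to *Kdr*, 0.690 for *Kdr* to *Pecam1*, 0.413 for *Rgs5* to *Pecam1* and 0.167 for *Lyve1* to *Pecam1*.

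No junction or surface gene passed the adjusted threshold (0 of 10 by edgeR and by DESeq2, against 0.629% and 4.45% of all genes). At an unadjusted p under 0.05 edgeR gave 1 of 10, against 14.5% of all genes. *Pecam1* (chr11:106654217-106750628) was at 6.78, 11.9, 9.14 and 11.4 CPM in WT and 11.9, 15.7, 8.65, 12.6 and 10 CPM in DKO. *Cdh5* (chr8:104101625-104144511) was at 0.713, 1.49, 1.32 and 1.24 CPM in WT and 1.23, 1.81, 1.46, 1.58 and 1.23 CPM in DKO. In both genes WT replicate 1 was low, DKO replicate 2 was the highest library and the groups overlapped. The log2 fold changes were 0.27 for *Pecam1* (95% interval -0.17 to 0.71) and 0.29 for *Cdh5* (95% interval -0.27 to 0.84), and both were about 0 when libraries were scaled by total size alone.

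*Esam*, which encodes a tight junction adhesion molecule of endothelium and platelets, did not overlap between the groups. It was at 8.65, 9.82, 10.4 and 9.56 CPM in WT and 11.8, 12.4, 11.3, 10.6 and 10.9 CPM in DKO. Every DKO library was higher, by a small margin, and the log2 fold change was 0.25 (SE 0.11, 95% interval 0.01 to 0.48; edgeR, Benjamini-Hochberg adjusted p = 0.310). It was -0.05 under scaling by total library size alone. Of the 38 members 2 were higher without overlap and 1 was lower, 5.26% and 2.63%, against 2.49% and 3.51% of all genes tested. Summed platelet genes, of which 6 were listed and 2 tested, were 5.52 to 11.0 CPM in WT and 3.12 to 7.58 CPM in DKO, with all 6 above 0 in at least 1 library.

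Among the other surface genes, *Plvap*, which encodes the diaphragm protein of fenestrated capillaries, had a log2 fold change of 0.37, the guidance receptor gene *Robo4* one of 0.35, the phosphatase gene *Ptprb* one of 0.33 and the sialomucin gene *Emcn* one of 0.27. All their 95% intervals included 0. The TGF-beta co-receptor gene *Eng* (0.05) and the tight junction gene *Cldn5* (0.01) were close to 0, and both changed sign under other settings. *Cd34*, a sialomucin gene shared with stromal progenitors, was the 1 gene of the 10 that was lower, with a log2 fold change of -0.11 and 10.1 to 18.0 CPM in DKO against 13.5 to 18.8 in WT.

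*Vwf*, the gene for von Willebrand factor of endothelium and platelets, did not pass the adjusted threshold. It was at 3.70, 4.66, 3.97 and 4.29 CPM in WT and 3.54, 3.00, 2.38, 2.13 and 3.84 CPM in DKO. The DKO libraries were low, 4 of 5 below every WT library, and replicate 5 overlapped. The log2 fold change was -0.49 (SE 0.19, 95% interval -0.91 to -0.06; edgeR, Benjamini-Hochberg adjusted p = 0.271). Of the platelet genes summed above, edgeR and DESeq2 called 0 of the 2 tested and 0 had an unadjusted edgeR p under 0.05. Both were lower in DKO, with log2 fold changes of -0.86 for *Itga2b* and -0.57 for *Pf4* (edgeR, unadjusted p = 0.0594 and 0.0694). The summed platelet ranges overlapped, and the part of platelets in the *Vwf* value was not tested. *Egfl7*, a secreted endothelial factor gene that hosts a microRNA, was level at 11.1 to 14.1 CPM in WT and 11.6 to 14.9 CPM in DKO, with 7.37% of its exon bases shared with *Gm20532* on the same strand. *Mmrn2*, an endothelial matrix gene, had a log2 fold change of 0.08, and *Nos3*, endothelial nitric oxide synthase, one of 0.36 (95% interval -0.33 to 1.05) at 0.446 to 0.772 CPM in WT. The libraries do not keep strand, and 25.2% of the *Nos3* exon bases lie opposite the antisense gene *Gm15587*, so reads of the pair cannot be told apart.

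The SOXF transcription factor genes gave few reads. The WT counts of *Sox17*, which marks arterial endothelium, were 3, 1, 4 and 6, and its DKO counts were 5, 0, 6, 1 and 2. No order of the groups is visible at this depth, and 16.8% of its exon bases overlap *Gm37587* on the other strand. *Sox18* was at 0.268 to 0.600 CPM in WT and 0.534 to 1.24 CPM in DKO (log2 fold change 0.68, 95% interval -0.15 to 1.5), and *Sox7* at 0.600 to 0.795 CPM in WT and 0.123 to 1.14 CPM in DKO (-0.47, 95% interval -1.51 to 0.57). For *Erg* the counts were 2, 3, 8 and 1 (WT) and 3, 2, 3, 1 and 2 (DKO).

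The lymphatic genes differed widely in level, and the one that defines the cell type was almost unread. *Prox1* defines lymphatic endothelium. Its counts were 3, 0, 1 and 0 (WT) and 1, 3, 3, 4 and 2 (DKO), so this gene was at or near 0 and lymphatic cells cannot be followed at this depth. *Lyve1*, a hyaluronan receptor gene of lymphatics and of some macrophages, was at 0.758, 0.649, 1.06 and 0.986 CPM in WT and 0.527, 0.370, 1.24, 0.632 and 0.435 CPM in DKO. Its values were lower in 4 of 5 DKO libraries than in any WT library, and DKO replicate 3 was the highest of all 9. The log2 fold change was -0.44 (95% interval -1.23 to 0.36; edgeR, Benjamini-Hochberg adjusted p = 0.657). The *Lyve1* to *Pecam1* difference of -0.81 on the log2 scale did not pass. With 1 library left out the exact permutation p, not adjusted over the 6 ratios, was 0.0286 without DKO replicate 3 (difference -1.19) and 0.125 to 0.343 in the other 8 cases. *Flt4*, the VEGF-C receptor gene, *Mmrn1* and *Pdpn*, the podoplanin gene that epithelial and stromal cells also use, had log2 fold changes of -0.24, -0.43 and 0.04, each with a 95% interval that included 0.

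Among the mural genes, *Mcam* was about 2-fold lower in DKO. It encodes CD146, an adhesion molecule of endothelium, pericytes and smooth muscle, and lies at chr9:44134469-44142727. It was at 7.63, 4.16, 7.04 and 5.75 CPM in WT replicates 1 to 4 and 3.22, 3.20, 2.01, 3.83 and 2.97 CPM in DKO replicates 1 to 5. All 5 DKO libraries were below all WT libraries, and WT replicate 2 came closest to them. The log2 fold change was -1.01 (SE 0.22, 95% interval -1.48 to -0.54), with an edgeR Benjamini-Hochberg adjusted p of 0.0555, the smallest of the 38 members, and a DESeq2 Benjamini-Hochberg adjusted p of 0.00163. edgeR called it without WT replicate 2 and without DKO replicate 4, and DESeq2 called it with any 1 library left out.

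*Cspg4*, which encodes the pericyte proteoglycan NG2, was also low, at 0.758, 0.802, 1.10 and 0.943 CPM in WT and 0.322, 0.616, 0.504, 0.790 and 0.507 CPM in DKO. DKO replicate 4 was the 1 DKO library inside the WT range. Its log2 fold change of -0.73 (SE 0.30) had an edgeR Benjamini-Hochberg adjusted p of 0.290. The other 4 mural genes did not pass in any direction. *Rgs5*, the regulator of G protein signalling that marks pericytes, was at 16.6, 14.7, 14.7 and 12.6 CPM in WT and 18.2, 17.4, 16.9, 14.1 and 7.75 CPM in DKO. DKO replicates 1 to 3 were highest, replicate 5 was lowest of all 9, and the log2 fold change was 0.03 (95% interval -0.42 to 0.49). *Notch3*, the receptor of arterial smooth muscle and pericytes, was at 0.847, 1.95, 1.52 and 1.03 CPM in WT and 1.55, 2.10, 1.33, 1.54 and 1.81 CPM in DKO. Its groups overlapped, with a log2 fold change of 0.30 (95% interval -0.29 to 0.89), and 6.03% of its exon bases lie opposite the antisense gene *Gm17276*. *Kcnj8* and *Abcc9*, the subunits of the potassium channel of pericytes, had log2 fold changes of 0.22 and 0.51, with 95% intervals that included 0.

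**Figure D3:**
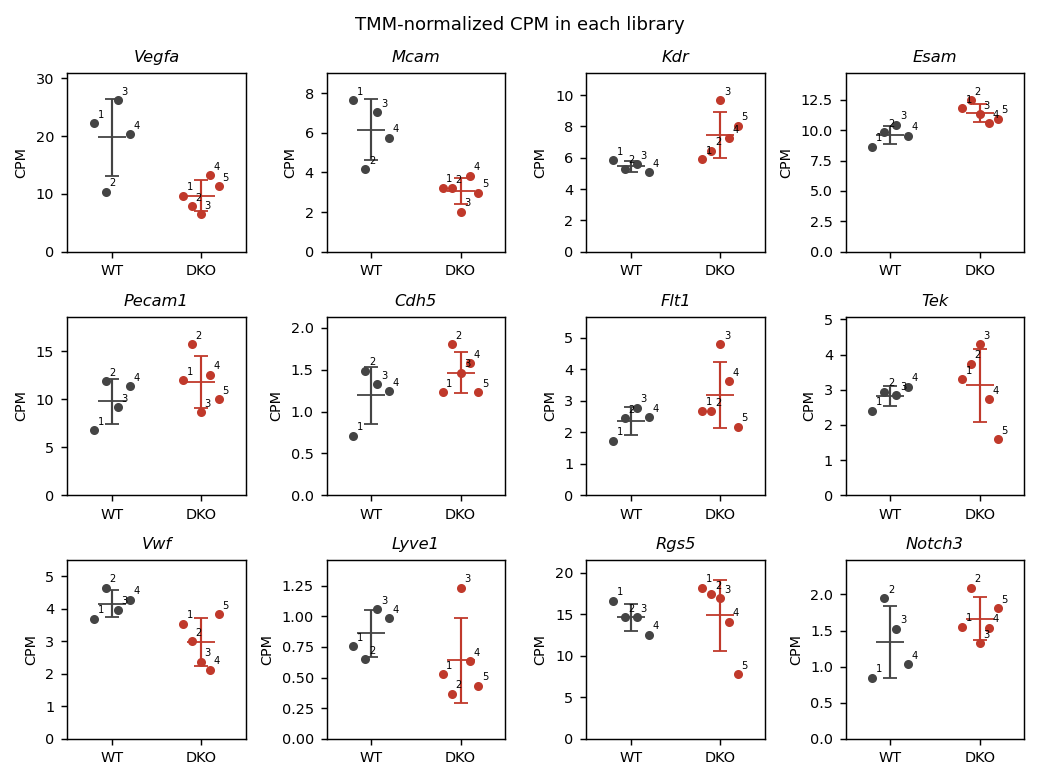
TMM-normalized CPM of 12 members in each library, with the replicate number beside each point and bars for the mean ± SD (WT n = 4, DKO n = 5). *Mcam* is lower and *Kdr* and *Esam* are higher in every DKO library than in any WT library, *Vegfa* overlaps through WT replicate 2, and the other 8 genes overlap.

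Epithelial marker genes moved in the same libraries as *Vegfa* and *Mcam*. The summed level of 10 granular duct genes was 43635 to 108833 CPM in WT and 5672 to 34289 CPM in DKO. All 10 were lower in DKO and DESeq2 called 10 of them, edgeR 1, against 4.45% and 0.629% of all genes. Most are kallikrein genes of the near-identical *Klk1b* family, so the split of reads among them is uncertain. The summed level of 10 genes of contractile myoepithelial cells, which smooth muscle shares in part, was 730 to 1160 CPM in WT and 288 to 651 CPM in DKO. All 9 that were tested were lower, 5 of them called by edgeR. In both lists, and for *Vegfa* and *Mcam*, WT replicate 2 was the lowest WT library, DKO replicate 4 the highest DKO library and DKO replicate 3 the lowest of all 9. The part of these cells in the 2 members' values was not tested. The summed level of 6 acinar genes ran the other way, 129331 to 200242 CPM in WT and 208222 to 349922 CPM in DKO.

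**Figure D4:**
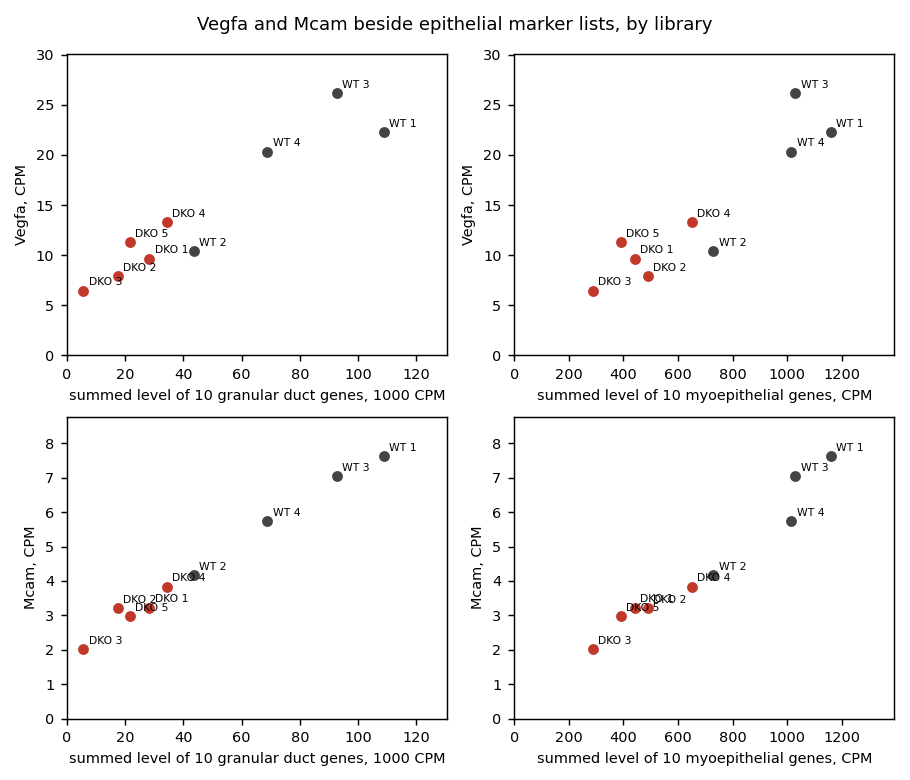
*Vegfa* (upper row) and *Mcam* (lower row) in CPM against the summed CPM of 10 granular duct genes (left, in units of 1000 CPM) and 10 myoepithelial genes (right), with 1 labelled point per library. WT replicate 2 and DKO replicate 4 lie next to each other between the remaining WT and DKO libraries along the duct axis, and DKO replicate 3 is at the lower left of all 4 panels.

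The other marker lists bear on vessels in different ways. Summed fibroblast genes (7 of 7 tested, 6 lower) were 361 to 598 CPM in WT and 156 to 443 CPM in DKO. edgeR called 0 of these 7 and 3 had an unadjusted p under 0.05, against 0.629% and 14.5% of all genes. Summed red cell genes were 15 to 37.3 CPM in WT and 14.3 to 38.6 CPM in DKO, and summed leukocyte genes 19.0 to 29.7 and 12.6 to 30.4 CPM. Skeletal muscle genes summed to at most 7.98 CPM and adipocyte genes to at most 4.35 CPM in any library. Schwann cell and neural genes summed to 19.3 to 23.8 CPM in WT and 19.5 to 31.2 CPM in DKO. Genes of the neighbouring sublingual and parotid glands summed to 8194 CPM in DKO replicate 1 and to 25.3 to 138 CPM in the other 8 libraries. Most of the sum in DKO replicate 1 was *Bpifa2*, at 7424 CPM. *Muc19* of the same list had 172 counts in WT replicate 3 and 155 in DKO replicate 4, against 0 to 18 elsewhere. *Dcpp2* had 705 and 1135 counts in the same libraries and 0 to 172 elsewhere. Genes of this list were thus not high in DKO replicate 1 alone. Among the 38 members, DKO replicate 1 was the highest of all 9 libraries for 4, *Cldn5*, *Vegfb*, *Rgs5* and *Abcc9*, and the lowest for 2, *Aplnr* and *Cspg4*. Without it the log2 fold changes were -0.23 for *Cldn5*, 0.0880 for *Vegfb*, -0.0493 for *Rgs5*, 0.38 for *Abcc9*, -0.64 for *Aplnr* and -0.57 for *Cspg4*, so *Cldn5* and *Rgs5* turned direction. Those of *Vegfa* (-1.03), *Mcam* (-1.03), *Kdr* (0.53) and *Esam* (0.23) kept theirs.

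Further genes of the same pathways were read in the same way. Of 25 other blood endothelial genes 22 were tested, 16 of them higher in DKO and 6 lower, with a median log2 fold change of 0.17. Over all genes tested 52.5% were higher. edgeR called 0 of the 22, against 0.629% of all genes. At an unadjusted p under 0.05 it gave 5, all higher in DKO, against 14.5% of all genes and 6.89% in that direction. DESeq2 called 1, against 4.45% of all genes, and this was the adhesion receptor gene *Adgrl4*. It was at 4.15, 5.19, 5.28 and 4.12 CPM in WT and 6.03, 6.29, 8.51, 6.44 and 7.17 CPM in DKO, higher in every DKO library, with a log2 fold change of 0.55 (SE 0.15; DESeq2, Benjamini-Hochberg adjusted p = 0.0359). *S1pr1*, the sphingosine-1-phosphate receptor gene, was 2.63 to 3.40 CPM in WT and 3.75 to 6.06 CPM in DKO, also without overlap. *Ly6c1* did not overlap either, at 8.70 to 10.9 CPM in WT and 11.0 to 16.7 CPM in DKO. Of all genes tested 2.49% were higher without overlap. *Nostrin*, which encodes a trafficking partner of endothelial nitric oxide synthase, had a log2 fold change of 0.86 (SE 0.29; edgeR, Benjamini-Hochberg adjusted p = 0.184, and DESeq2, 0.0683). Its groups overlapped, at 2.25 to 4.37 CPM in WT and 4.36 to 10.2 CPM in DKO, where replicate 3 was highest. Summed over the 25 genes the level was 91.4 to 111 CPM in WT and 104 to 123 CPM in DKO, and the groups overlapped.

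Arterial and venous genes (9 tested) had a median log2 fold change of 0.04, other lymphatic genes (4 tested) one of -0.10 and other mural genes (10 tested) one of -0.20, and both edgeR and DESeq2 called 0 in these lists. At an unadjusted p under 0.05 edgeR gave 1 in each, against 14.5% of all genes. Of 23 other angiogenic signal genes 14 were tested, 3 higher and 11 lower, with a median of -0.17. edgeR called 1 of them and DESeq2 2, against 0.629% and 4.45% of all genes. The called gene was *Sema3c*, which encodes a secreted semaphorin that binds neuropilins. It was at 84.4, 55.9, 80.1 and 56.8 CPM in WT and 39.5, 33.9, 22.4, 44.5 and 36.7 CPM in DKO, lower in every DKO library, and its log2 fold change was -0.97 (SE 0.19; edgeR, Benjamini-Hochberg adjusted p = 0.0497). *Thbs1*, the gene of the angiogenesis inhibitor thrombospondin-1, was at 7.30 to 13.1 CPM in WT and 1.33 to 6.67 CPM in DKO, with a log2 fold change of -1.69 (SE 0.34; edgeR, Benjamini-Hochberg adjusted p = 0.0506, and DESeq2, 0.000244). In both genes, as for *Vegfa*, *Mcam* and the duct and myoepithelial sums, WT replicate 2 was the lowest WT library, DKO replicate 4 the highest DKO library and DKO replicate 3 the lowest of all 9, and the part of those cells was not tested.

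*Vegfa* is a known target of the hypoxia-inducible factors, and 14 genes of these factors, their regulators and their targets were read beside it. Of the 14 tested, 5 were higher and 9 lower, with a median log2 fold change of -0.04. edgeR and DESeq2 called 0, and 1 had an unadjusted edgeR p under 0.05, against 14.5% of all genes. This was *Hif1a*, which encodes the oxygen-regulated subunit, at 15.7, 14.2, 16.5 and 13.5 CPM in WT and 11.9, 10.6, 13.2, 12.0 and 11.8 CPM in DKO. Every DKO library was below every WT library, with a log2 fold change of -0.33 (SE 0.11; edgeR, Benjamini-Hochberg adjusted p = 0.169). Next by p came the targets *Pgk1* and *Car9*, with log2 fold changes of -0.27 (SE 0.13) and 0.72 (SE 0.41). Neither passed (edgeR, Benjamini-Hochberg adjusted p = 0.389 and 0.470). *Slc2a1*, the glucose transporter gene among the targets, was level at 5.69 to 7.84 CPM in WT and 5.43 to 7.90 CPM in DKO.

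Levels of different genes were compared as CPM per kb of exon in GENCODE M21. In WT *Vegfb* was highest at 7.05 ± 0.616 CPM per kb (SD, n = 4), followed by *Vegfa* at 4.62 ± 1.57, *Pdpn* at 4.01 ± 1.75, *Egfl7* at 3.42 ± 0.358, *Esam* at 3.35 ± 0.259 and *Rgs5* at 3.22 ± 0.366. *Pecam1* was 13th at 1.57 ± 0.375 and *Kdr* 19th at 0.603. In DKO *Vegfb* was again highest at 7.66 ± 0.597 CPM per kb (SD, n = 5), and *Vegfa* was 9th at 2.27 ± 0.630. Of the 41 pairs of neighbours in the WT order, 2 had library values that did not overlap, *Vegfb* against *Vegfa* and *Nrp1* against *Emcn*, so the order between other neighbours is not resolved. The order also depends on the length used. Per kb of the longest transcript, *Egfl7* was at 6.57 CPM in WT, above *Vegfa* at 5.73. Of the 42 members 14 were at 1 CPM per kb or more in WT, and 8 were at 0.1 or less, among them *Prox1*, *Sox17*, *Erg* and *Apln*.

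**Figure D5:**
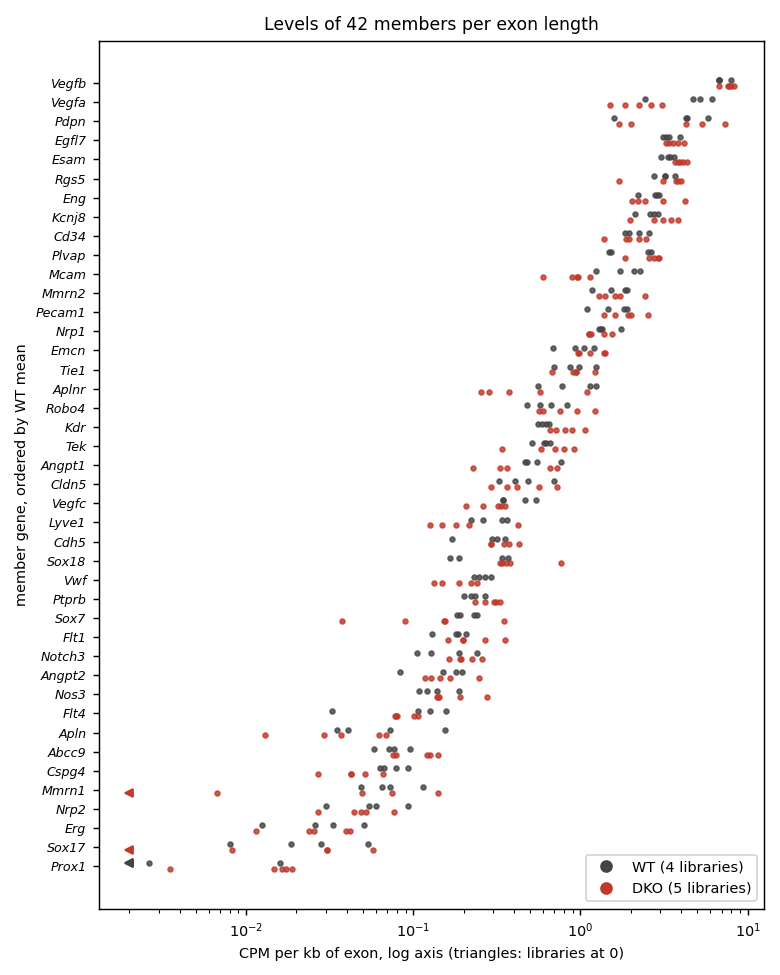
CPM per kb of exon on a log axis for all 42 members in the WT (grey) and DKO (red) libraries, ordered by the WT mean, with triangles for libraries at 0. *Vegfb* is highest in both genotypes, the *Vegfa* and *Mcam* points of DKO lie to the left of most WT points, and *Prox1* is lowest.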

How the data were processed

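RNA from the SMGs of 9 male mice was sequenced by the authors from unstranded Nextera XT libraries. Per the labels, STAR 2.5.2a, DESeq2, edgeR and limma and the builds GRCm38, mm10 and GRCh38 are named, without their roles. The deposited files hold raw read counts, a filtered set of the same counts, and TMM-scaled CPM, a signal value from the authors that is the filtered count divided by 1 factor per library. All 158058 CPM values (100%) gave whole reads within 0.01 read, and a count test on these reads called 87 genes. The filter and annotation of the files are not given in the sources used here. The members were matched by symbol: 41 of 42 are in the CPM table of 17562 rows, and *Prox1* was matched by its GENCODE M21 (GRCm38) identifier in the raw counts. Members and lists were chosen with earlier results of these data known.

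Raw counts were tested in R 4.3.3 with edgeR 4.0.16 (TMM, filterByExpr with minimum count 10 and minimum total 15, quasi-likelihood F test, genotype as the single term) and Benjamini-Hochberg adjustment over 13842 genes at 0.05. DESeq2 1.42.0 and limma 3.58.1 were alternatives, since the study used DESeq2. Standard errors are the log2 fold change over the square root of F, and 95% intervals use the t quantile of the fit. A count of 0 allows up to 3 counts, which covers counting error only. Within-library ratios were tested by exact two-sided permutation over all splits of 4 against 5. Values are given in every library for members with an adjusted p under 0.05 by edgeR or DESeq2, members without overlap and 14 defining genes; *Cspg4* was added after its values were seen. Of the genes outside the members, the called ones and at most 3 with the smallest p per list are named. *Slc2a1*, *Muc19*, *Dcpp2* and *Ly6c1* were chosen after their values were seen. The fits were tested on simulated counts. Figures were drawn with matplotlib 3.10.9.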

Additional observations from a re-analysis of the deposited data

Results flagged for a closer look

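In 76 groups of 4 or 5 libraries, 3 held a library far from the others by Dixon's criterion, which chance gives in about 1 of 20 groups. *Sox18* was at 1.24 CPM in DKO replicate 3, and the next DKO library was at 0.615 CPM. *Nrp1* was at 17.2 CPM in WT replicate 3, with the next at 13.2 CPM. *Vegfb* was at 12.8 CPM in WT replicate 2, with the next at 10.9 CPM. None of these 3 genes passed an adjusted threshold in edgeR or DESeq2.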

How the results depend on the processing

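Of the 38 members 22 kept the direction of their fold change under every alternative that gave them a value, and 47 of 858 values were reversed. *Vegfa* and *Mcam* kept theirs under all 23 alternatives, at -1.30 to -0.86 and -1.27 to -0.81, and the adjusted p was 0.00673 to 0.272 and 0.00163 to 0.220 over these alternatives, DESeq2 included. edgeR called 87 genes. The count was 5 with upper-quartile factors, 358 with total library size alone, 5 with TMM without the 20 most abundant genes, 616 with DESeq2, 148 with limma-voom, 347 with no filter, 13 with the filtered table, 6 with CPM and a pseudocount of 1, 45 with the robust fit, and 0 to 441 over the fits that left out 1 library, with 306 without WT replicate 2, 441 without DKO replicate 4 and 0 to 2 without any other. No member (0) was called, against 2 with total library size alone, with DESeq2 and with no filter, and 0 to 2 over the fits without 1 library. DESeq2 called 1 to 3 members in such fits.

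Total library size alone moved the median of all genes to -0.28, and the medians to -0.0201 (junction and surface), -0.21 (secreted, matrix and enzyme), -0.31 (receptors), -0.53 (ligands), -0.18 (mural), -0.14 (blood endothelial) and -0.23 (all members). It reversed *Pecam1* (-0.0049), *Cdh5* (-0.0054), *Esam* (-0.0503), *Cldn5* (-0.27), *Emcn* (-0.0348), *Eng* (-0.25), *Egfl7* (-0.21), *Mmrn2* (-0.21), *Tek* (-0.14), *Pdpn* (-0.30), *Vegfb* (-0.17), *Angpt2* (-0.19), *Rgs5* (-0.25) and *Kcnj8* (-0.11). With limma-voom *Eng* was -0.10 and *Pdpn* -0.25. On deposited CPM with a pseudocount of 1, *Cldn5* was -0.0105, *Pdpn* -0.0189 and *Rgs5* -0.0258, and with 0.1 they were -0.0308, -0.0267 and -0.0318. Leaving out each library gave -0.23 to 0.24 for *Cldn5*, -0.14 to 0.15 for *Eng*, -0.0851 to 0.17 for *Mmrn2*, -0.13 to 0.14 for *Tie1*, -0.47 to 0.0347 for *Nrp2*, -0.26 to 0.27 for *Pdpn*, -0.12 to 0.26 for *Angpt2* and -0.0493 to 0.19 for *Rgs5*. The median of the 2 transcription factors ran from -0.31 to 0.28 and that of the ligands from -0.51 to -0.10. The difference of log2 ratios ran from -0.21 to 0.12 for *Flt1* to *Kdr*, from -0.0375 to 0.36 for *Kdr* to *Pecam1* and from -1.19 to -0.54 for *Lyve1* to *Pecam1*. The cause was not tested in any of these.

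With the replicate number as a block 0 genes and 0 members were called, with 2024 genes at an unadjusted p under 0.05, and *Cldn5* was -0.10, *Tie1* 0.10 and *Pdpn* -0.0729. Same-numbered libraries deviated together with correlations of 0.150, 0.298, 0.0739 and 0.0136, which cannot show whether they shared a litter or batch. WT replicates 1 and 2 matched their own number best, and WT replicates 3 and 4 matched DKO replicate 5. No transcription factor member passed the stricter filter of 50 counts in 4 libraries. *Prox1*, *Sox17*, *Erg* and *Apln*, at 0 to 11 counts, are limited by depth.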
